A study of Mus musculus with 8 samples.

Results

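The genes described here are 9 genes whose products define mast cells: the proteases Mcpt1, Mcpt2, Mcpt4, Cma1, Cpa3 and Tpsb2, the histamine-forming enzyme Hdc, and the IgE receptor chains Fcer1a and Ms4a2. They were taken by name, with every probe set that the array annotation assigned to exactly 1 of them. This gave 12 probe sets for 9 of 18193 genes on the array, and all 9 passed the filter on low signals that left 14023 genes for testing. The expression data came from 8 Affymetrix arrays of C57BL/6 mice aged 110 days, with small intestine (ileum) and colon each giving 4 arrays. The non-tumour arrays held tissue of WT mice and of ACKR2-/- mice, which lack the atypical chemokine receptor ACKR2 (also called D6) and carry no ApcMin allele. The tumour arrays held spontaneous tumours of ApcMin/+ mice and of ACKR2-/- ApcMin/+ mice, which carry a mutated copy of the tumour suppressor gene Apc. RNA was pooled within each genotype and tissue, so every group was 1 array and the number of animals behind it is not given. Tumours were therefore set against intestine of other mice without the ApcMin allele, and not against tissue next to the tumours.

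Mast cells are granule-filled leukocytes that arise from bone marrow progenitors and mature in tissues under stem cell factor. Mouse mast cells are divided into a mucosal type, which lies in the epithelium and lamina propria of the gut and is marked by the chymases Mcpt1 and Mcpt2, and a connective-tissue type. The latter lies in the submucosa, skin and serosa and stores the chymases Mcpt4 and Cma1, the tryptase Tpsb2 and carboxypeptidase A3 (Cpa3). Both types carry the high-affinity IgE receptor, of which Fcer1a encodes the IgE-binding chain and Ms4a2 the beta chain, and both make histamine through Hdc. ACKR2 binds inflammatory CC chemokines and removes them without signalling through G proteins.

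The chymase genes Cma1, Mcpt1, Mcpt2 and Mcpt4 lie in this order on chromosome 14, with Cma2 between Cma1 and Mcpt1 and Mcpt9 between Mcpt2 and Mcpt4 (RefSeq, GRCm38.p6). The 250 bases before the start of the gene were held by the RefSeq promoter table (GRCm38.p6) for 7 of the 9 genes, and there was no entry for Mcpt2 and Tpsb2. They are shown for 1 mucosal protease and for 3 connective-tissue type proteases, because the first pair is close in sequence while its signals on the arrays lay far apart. Capitals mark the hexamer bound by GATA factors, a family that includes the mast cell regulator GATA2; the search took AGATAA and also AGATAG, then TGATAA and also TGATAG, each on both strands. Each sequence is written 5′ to 3′ on the strand of the gene.
Mcpt1, chr14:56017714-56017963, plus strand: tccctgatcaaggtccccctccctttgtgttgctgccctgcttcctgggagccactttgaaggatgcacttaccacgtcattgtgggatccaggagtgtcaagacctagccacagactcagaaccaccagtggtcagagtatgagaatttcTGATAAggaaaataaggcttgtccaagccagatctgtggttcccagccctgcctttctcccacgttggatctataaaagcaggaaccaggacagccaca
Mcpt4, chr14:56062311-56062560, minus strand: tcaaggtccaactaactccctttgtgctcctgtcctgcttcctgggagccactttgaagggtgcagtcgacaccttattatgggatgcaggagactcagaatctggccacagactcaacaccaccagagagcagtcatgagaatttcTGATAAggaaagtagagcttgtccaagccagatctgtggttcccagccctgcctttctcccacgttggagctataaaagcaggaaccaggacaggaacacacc
Cma1, chr14:55944676-55944925, minus strand: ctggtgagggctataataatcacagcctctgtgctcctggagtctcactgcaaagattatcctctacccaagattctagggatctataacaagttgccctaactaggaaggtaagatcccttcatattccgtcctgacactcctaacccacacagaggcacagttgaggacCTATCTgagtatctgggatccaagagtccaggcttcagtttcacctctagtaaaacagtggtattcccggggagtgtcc
Cpa3, chr3:20242182-20242431, minus strand: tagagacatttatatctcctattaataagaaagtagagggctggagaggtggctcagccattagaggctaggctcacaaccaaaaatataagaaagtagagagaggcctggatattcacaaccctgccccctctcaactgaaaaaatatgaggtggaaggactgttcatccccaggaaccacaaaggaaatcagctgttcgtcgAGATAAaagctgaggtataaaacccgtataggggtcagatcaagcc
In a global alignment the upstream sequences of Mcpt1 and Mcpt4 were identical in 207 of 254 columns (81.5%). All other pairs of the 7 genes lay between 42.3% and 48.9%. Both carried TGATAA, from 99 to 94 bases before the start in Mcpt1 and from 103 to 98 bases before it in Mcpt4. At least 1 of these hexamers was found in 7 of 7 of the genes with an entry and in 26.5% of 32851 promoters of the same length. TATAAA on the strand of the gene was found in 4 of 7 (Mcpt1, Mcpt4, Cpa3 and Fcer1a) and in 7.59% of all promoters. The E-box CATGTG, with its complement CACATG, was found in 1 of 7 (Fcer1a) and in 12.3% of all promoters. These matches describe the letters only.

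Signals were on a linear scale on which every array had a trimmed mean of 500, and values below 64.1 were set to 64.1 (6.00 on the log2 scale) before testing. Where the lower of a pair of values was set to the floor, the difference gives only its smallest possible size, written as at least. Means over such pairs share this limit and are written without these words. Median signals ran from 115 to 133 in the 4 arrays with intact ACKR2 and from 85.5 to 103 in the 4 without ACKR2, and the Actb 3′/5′ signal ratio from 1.13 to 1.17 and from 1.28 to 1.39. All 7 small-intestinal markers tested were lower in non-tumour colon and 5 of 7 colon markers were higher there. The colon gene Car1 had 18864 in WT small intestine and 42.3 to 114 in the other small-intestinal arrays, so the WT small-intestinal array stood apart. The Y-linked Eif2s3y had signals under 3 in both WT arrays and 888 to 1501 elsewhere, so signs of sex differed between the WT pools and the others. The probe set used for Ackr2 gave 71.3 to 153 on all 8 arrays and does not check the genotype. Every test was read from a single limma fit over all genes, with 2 residual degrees of freedom. With 1 pool per group, its spread reflects only the unevenness of the ACKR2 difference across the tissues, and nothing in it estimates variation among animals.

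In small intestine, the tumour pools had far higher mast cell gene signals than the non-tumour pools, most of all for the mucosal proteases. Mcpt1 had signals of 133 in WT and 67.9 in ACKR2-/- small intestine, against 7561 in ApcMin/+ and 14036 in ACKR2-/- ApcMin/+ tumours. Mcpt2 had 106 and 198 in the same non-tumour pools and 4468 and 9940 in the tumours. Both non-tumour values of each gene lay above the floor, and every tumour value exceeded them by more than an order of magnitude. The pair with intact ACKR2 differed 56.9-fold and the ACKR2-/- pair 207-fold for Mcpt1, and 42.3-fold and 50.2-fold for Mcpt2. Averaged over the pairs, Mcpt1 rose by 6.76 ± 0.91 (SE) on the log2 scale (limma adjusted p = 0.0183) and Mcpt2 by 5.52 ± 0.59 (adjusted p = 0.00890). They ranked 2 and 3 by this difference among 14023 genes. In bulk tissue, more mast cells and more of these transcripts per cell cannot be told apart. Mcpt1, Mcpt2 and Mcpt4 are close paralogs, and whether a probe set also takes up transcripts of a neighbour was not tested.

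**Figure D1:**
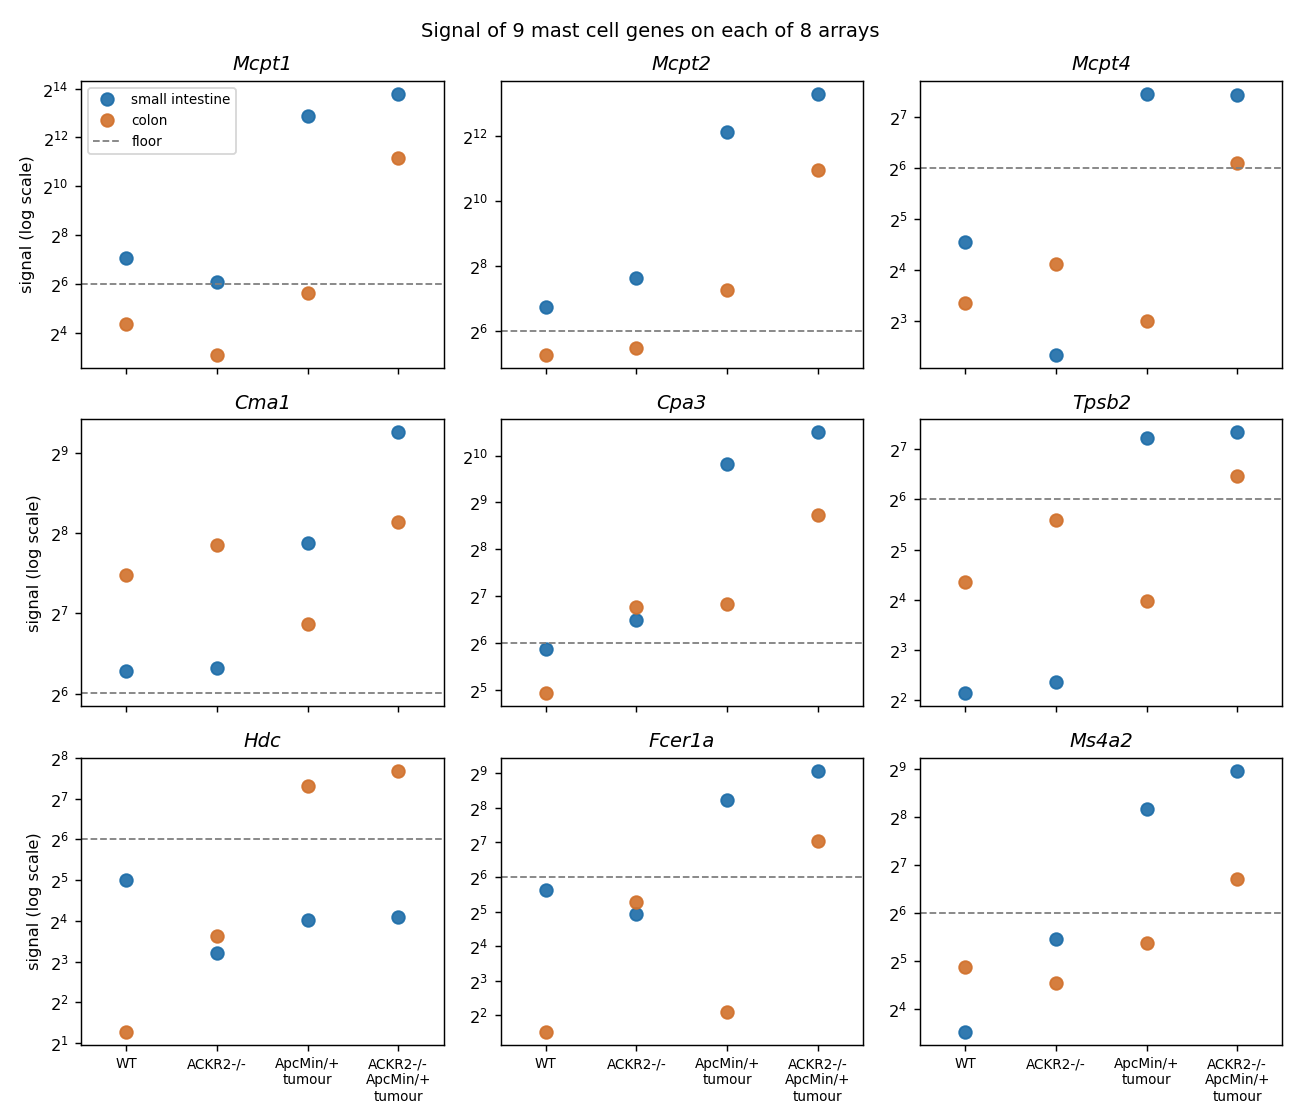
Signal of each of the 9 genes (y axis, log scale, a separate range per panel) in the 4 genotypes of small intestine (blue) and colon (orange), 1 point per array; the dashed line is the floor of 64.1. Mcpt1 and Mcpt2 reach 14036 and 9940 in small-intestinal tumours without ACKR2, while Hdc exceeds the floor only in the colon tumours.

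The connective-tissue type proteases were also higher in small-intestinal tumours, by smaller amounts on the floored scale. Cpa3 had 58.1 in WT and 89.6 in ACKR2-/- small intestine, and 904 and 1442 in the tumours with and without ACKR2. Cma1 had 77.8 and 79.7 in the non-tumour pools and 236 and 610 in the tumours. Cma1 was the only gene of the 9 above the floor on all 8 arrays, so its differences are not lower limits. The tumour pools differed from their partners by at least 14.1-fold and by 16.1-fold for Cpa3, and by 3.03-fold and 7.65-fold for Cma1. The chymase Mcpt4 had 23.4 and 5.06 in non-tumour tissue and 174 and 172 in tumours. The tryptase Tpsb2 had 4.40 and 5.16, and 150 and 161. For Mcpt4 and Tpsb2 both non-tumour pools were below the floor and both tumour pools were above it, at nearly equal levels with and without ACKR2. Cpa3 rose by 3.91 ± 0.35 (adjusted p = 0.00618), Cma1 by 2.27 ± 0.25 (0.0102), Mcpt4 by 1.43 ± 0.18 (0.0145) and Tpsb2 by 1.28 ± 0.19 (0.0240). Of these means, those of Cpa3, Mcpt4 and Tpsb2 are lower limits. A second Tpsb2 probe set gave at most 32.2 on any array and gave no measurable difference.

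Both IgE receptor chains rose together in small-intestinal tumours. Fcer1a had 49.2 in WT and 30.7 in ACKR2-/- small intestine, and 297 and 540 in the ApcMin/+ and ACKR2-/- ApcMin/+ tumours. Ms4a2 had 11.5 and 43.9 in the non-tumour pools, and 290 and 501 in the tumours. All 4 non-tumour values were below the floor, and the tumours exceeded it by at least 4.52-fold. Fcer1a rose by 2.64 ± 0.21 and Ms4a2 by 2.57 ± 0.20 (adjusted p = 0.00415 for both). The other Ms4a2 probe set had 19.6 and 4.96 in non-tumour tissue and 117 and 113 in tumours, the same order at lower signal. Hdc did not follow: its signals were 32.1 and 9.21 in non-tumour tissue and 16.2 and 17.0 in tumours, all below the floor.

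In all, 8 of 9 genes were called higher in small-intestinal tumours and 0 lower, where 2.77% of all genes tested were called higher. The median over the 9 genes was 2.57 on the log2 scale and that over all genes 0.04. At least 2-fold higher in both pairs were 8 of 9, against 3.14% of all genes. The ACKR2-/- pair alone, which holds no WT array, and the WT pair alone also gave 8. Each was fixed by the count over both pairs, because Hdc, the gene left, was below the floor on every small-intestinal array. They are therefore no separate check. For Mcpt4, Tpsb2, Fcer1a and Ms4a2 both non-tumour values were set to the floor, as were those in colon. That part of the fit held no spread, so their standard errors are too small in every comparison. These genes passed the filter only through tumour arrays, where they were high. Without any 1 of the 8 arrays limma called 0 of 9 genes and 0 of all genes, with 7 to 8 of the 9 at an unadjusted p under 0.05. A floor at the 60th percentile left 3 of 6 tested genes called (Mcpt1, Mcpt2 and Cpa3), no filter left 1 of 9 (Ms4a2), no floor ended the calls of Mcpt4 and Fcer1a, and the mean of all probe sets ended that of Tpsb2.

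**Figure D2:**
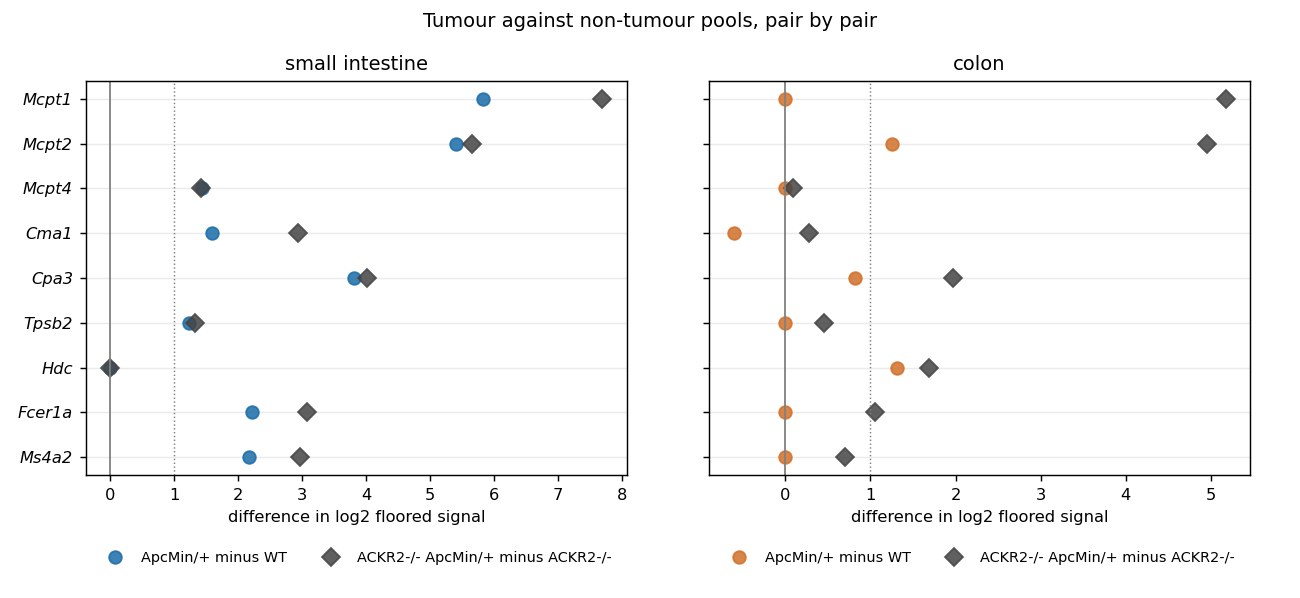
Tumour minus non-tumour difference on the log2 scale (x axis) for each gene in small intestine (left) and colon (right), circles for ApcMin/+ minus WT and diamonds for ACKR2-/- ApcMin/+ minus ACKR2-/-; the dotted line is a 2-fold difference and 0 also stands for pairs with both values at the floor. In small intestine both symbols lie past 1 for all genes but Hdc, and in colon the diamonds of Mcpt1 and Mcpt2 lie at 5.17 and 4.96 while their circles lie at 0 and 1.25.

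Markers of other cells moved with the tumours of the small intestine. Of 6 genes expressed in all leukocytes, 4 rose: the actin regulator Coro1a by 1.93 ± 0.24 (adjusted p = 0.0153), the tetraspanin Cd53 by 1.87 ± 0.19, the actin-bundling Lcp1 by 1.45 ± 0.17 and the phosphatase Ptprc (CD45) by 1.20 ± 0.18. Their summed signal was 5353 and 4327 in non-tumour tissue and 11959 and 14630 in tumours. Of 10 smooth muscle genes 6 fell, and their summed signal went from 55263 and 57809 to 22719 and 8980. The part of these shifts in the mast cell gene differences was not tested. Of the basophil markers, Mcpt8 had 5.56 in WT and 8.12 in ACKR2-/- small intestine and 56.5 and 127 in the tumours with and without ACKR2, so only the last exceeded the floor, and Cd200r3 was below the floor on all 8 arrays. Of 4 basophil genes tested, the activation antigen Cd69 rose (1.59 ± 0.27, adjusted p = 0.0362). The eosinophil granule genes Prg3 and Epx and the receptor Ccr3 were below the floor on every array. Below it, Epx had 7.29 and 10.2 in non-tumour and 55.2 and 45.3 in tumour pools of small intestine. Prg2 had 40.3 and 47.8, and 72.5 and 59.7, and did not pass the filter. Of 3 eosinophil genes tested 0 were called. Siglecf differed by 0.49 ± 0.57, Alox15 by 0.22 ± 0.27 and Il5ra, below the floor in these pools, by 0.

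Other genes known from mast cells, 27 in the list, showed a weaker pattern. Of these, 20 had a probe set of their own and 15 were tested. In small-intestinal tumours 2 of 15 rose and 0 fell: Srgn, which encodes the granule proteoglycan serglycin, by 1.28 ± 0.20 (adjusted p = 0.0264), and the cytokine receptor chain Csf2rb by 1.34 ± 0.25 (0.0457). Both are also expressed by other leukocytes. The median of the 15 was 0.30, beside 0.04 over all genes. Kit, the receptor for stem cell factor, which interstitial cells of Cajal also express, had 356 to 940 over the 8 arrays and a tumour difference of -0.08 ± 0.24. The tryptase Tpsab1 had 8.58 and 5.34 in non-tumour and 69.5 and 58.4 in tumour pools of small intestine and did not pass the filter. Ctsg, Mrgprb1 and Cd200r3 were below the floor everywhere.

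Signals for mast cell growth and homing were listed as 20 genes, of which 13 were tested. In small intestine 1 of 13 rose, Madcam1, the vascular ligand of the integrin alpha4beta7 that gut-homing mast cell progenitors carry, by 1.50 ± 0.24 (adjusted p = 0.0301), and 0 fell. In colon 3 of 13 rose: the IL-4 receptor chain Il4ra by 1.81 ± 0.25, the growth factor Bmp7 by 1.77 ± 0.26 and Madcam1 by 0.90 ± 0.24 (adjusted p = 0.0426). Stem cell factor itself, Kitl, differed by 0.55 ± 0.24 in small intestine and 0.69 ± 0.24 in colon and did not pass (adjusted p = 0.279 and 0.0929). The alarmin Il33 differed by 1.29 ± 0.43 and 1.37 ± 0.43 (adjusted p = 0.172 and 0.0663). Il3, Il10, Il13, Il25, Tslp and Il9r were below the floor on all 8 arrays.

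In colon the tumour difference was carried by fewer genes and was unlike in the pair with intact ACKR2 and the ACKR2-/- pair. Each pair is 1 array against 1 array, and whether the tumour difference depended on ACKR2 was not tested. Mcpt1 had 20.7 in WT and 8.57 in ACKR2-/- colon, 49.9 in ApcMin/+ tumours and 2316 in ACKR2-/- ApcMin/+ tumours. Mcpt2 had 38.5, 44.3, 153 and 1992 in the same order. For Mcpt1 only the tumours without ACKR2 exceeded the floor, and for Mcpt2 the ApcMin/+ tumours exceeded it too. The ACKR2-/- pair differed at least 36.1-fold for Mcpt1 and at least 31.1-fold for Mcpt2, and the pair with intact ACKR2 at least 2.38-fold for Mcpt2. Mcpt2 rose by 3.10 ± 0.59 (adjusted p = 0.0163), and Mcpt1 differed by 2.59 ± 0.91 without passing (adjusted p = 0.0914). Without a floor or with one at the 25th percentile, Mcpt1 was called in colon as well.

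Of the other proteases, only Cpa3 was called in colon. Cpa3 had 30.3 in WT and 109 in ACKR2-/- colon, and 113 and 426 in the tumours with and without ACKR2, and rose by 1.40 ± 0.35 (adjusted p = 0.0358). Its 3 upper values lay above the floor, and the value for ACKR2-/- colon nearly equalled that for ApcMin/+ tumours. Cma1 had 177 and 232 in non-tumour colon and 116 and 280 in tumours. The ranges of Cma1 in tumour and non-tumour colon overlapped, with a difference of -0.17 ± 0.25 (adjusted p = 0.681). Mcpt4, Tpsb2, Fcer1a and Ms4a2 were below the floor in both non-tumour pools and in ApcMin/+ tumours, and had 68.5, 87.8, 133 and 104 in ACKR2-/- ApcMin/+ tumours. None of these 4 passed in colon (adjusted p of at least 0.120).

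Hdc was distributed over the arrays unlike the other genes. Its signals were 2.42 in WT and 12.3 in ACKR2-/- colon and 159 and 206 in the colon tumours with and without ACKR2. Both colon tumour pools were above the floor and the other 6 arrays below it. Hdc rose by 1.50 ± 0.19 in colon tumours (adjusted p = 0.00568), by at least 2.48-fold and at least 3.22-fold in the pairs. It passed the filter only through the colon tumour pools, where it was high, and with no filter the call was lost. All its non-tumour values were set to the floor, so its standard error is too small in every comparison. The other Hdc probe set gave 7.74 and 9.24 in non-tumour colon and 76.9 and 175 in tumours, and at most 56.5 in small intestine. Hdc is also made by basophils and immature myeloid cells. Of 6 neutrophil genes tested, 3 rose in colon tumours, where 11.0% of all genes were called higher, and 0 in small intestine. They were S100a8 by 4.34 ± 0.42, S100a9 by 4.36 ± 0.27 and the gelatinase Mmp9 by 3.02 ± 0.32. Csf3r (1.02 ± 0.29), Ngp (0.82 ± 0.53) and Elane (-0.39 ± 0.18) did not pass in colon. The neutrophil list summed to 1231 and 634 in non-tumour colon and 13499 and 11849 in tumours, with Cxcr2, Camp and Mpo below the floor on every array. The part of neutrophils in the Hdc signal was not tested.

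The colon comparison gave 3 of 9 genes called higher (Mcpt2, Cpa3 and Hdc) and 0 lower, where 11.0% of all genes were called higher. The median over the 9 genes was 0.52 and that over all genes 0.00. At least 2-fold higher in both pairs were 2 of 9 (Mcpt2 and Hdc), against 4.86% of all genes. In the ACKR2-/- pair alone 5 of 9 were at least 2-fold higher: Mcpt1, Mcpt2, Cpa3, Hdc and Fcer1a. With a floor at the 60th percentile or with no filter 0 were called, and quantile normalization ended the call of Cpa3. Without any 1 array limma called 0 of the 9 genes and 0 of all genes, with 1 to 6 of the 9 at an unadjusted p under 0.05.

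Among the other mast cell genes in colon, 3 of 15 rose and 2 fell, where 11.0% of all genes were called higher and 12.6% lower. Srgn rose by 1.80 ± 0.20, Csf2rb by 1.19 ± 0.25 and the receptor gamma chain Fcer1g, shared by many myeloid cells, by 1.18 ± 0.24. The transcription factor Mitf fell by 1.48 ± 0.25 and the prostaglandin D synthase Hpgds by 1.12 ± 0.20 (adjusted p = 0.0113 and 0.0141). The median of the 15 was -0.28. Of 4 histamine genes tested, 1 fell in small-intestinal and 3 in colon tumours, where 1.20% and 12.6% of all genes were called lower. Hnmt, which methylates histamine inside cells, fell by 1.59 ± 0.22 in small intestine and fell by 2.13 ± 0.22 in colon. Aoc1, the diamine oxidase of the gut epithelium, fell by 2.10 ± 0.14 in colon and the receptor Hrh1 by 1.53 ± 0.34. The 10 smooth muscle genes all fell in colon tumours, and their sum went from 127270 and 109693 to 33653 and 8519. Of 3 eosinophil genes tested, 2 rose in colon tumours, Alox15 by 1.20 ± 0.27 and the receptor Il5ra by 0.68 ± 0.16.

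The tumour difference in small intestine was then set against that in colon. It was larger in small intestine for 8 of 9 genes, and the difference between the tissues passed for 3: Cma1 (2.43 ± 0.35, adjusted p = 0.0326), Fcer1a (2.12 ± 0.29, 0.0289) and Ms4a2 (2.22 ± 0.28, 0.0246). Across all genes 1.52% were called larger in small intestine. Mcpt1 and Mcpt2 differed by 4.17 ± 1.29 and 2.42 ± 0.83 and did not pass (adjusted p = 0.164 and 0.194). Their colon pairs, at 0 and 5.17 and at 1.25 and 4.96, were far apart. Cpa3 (2.52 ± 0.50, adjusted p = 0.0681), Mcpt4 (1.39 ± 0.25, 0.0544), Tpsb2 (1.05 ± 0.27, 0.115) and Hdc (-1.50 ± 0.27, 0.0546) also missed the threshold. The calls depended on the setting: only Cma1 was called with no floor, only Hdc with a floor at the 25th percentile, only Cpa3 with one at the 60th and 0 with no filter, while median centring ended the call of Cma1 and a single ACKR2 effect for all arrays those of Cma1 and Fcer1a. Without any 1 array limma called 0 of 9 and 0 of all genes, with 6 to 9 of the 9 at an unadjusted p under 0.05.

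**Figure D3:**
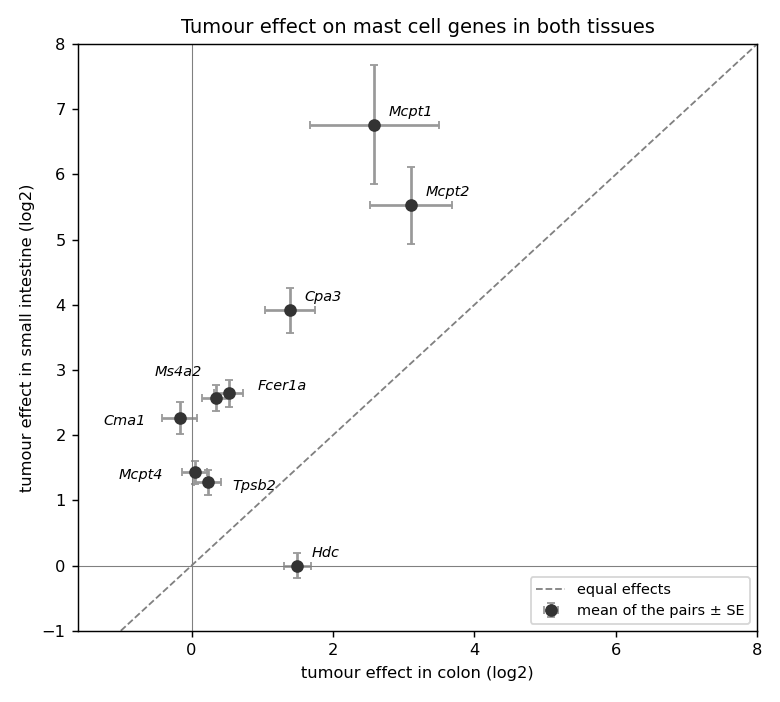
Tumour effect in colon (x axis) against that in small intestine (y axis), both on the log2 scale, 1 point per gene with bars of ± 1 SE from the limma fit; the dashed line marks equal effects. All genes but Hdc lie above the line, Mcpt1 at 6.76 in small intestine and 2.59 in colon, and Hdc lies below it at 0 and 1.50.

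Between the tumours themselves, 8 of 9 genes were higher in small intestine than in colon and Hdc was lower, where 7.36% of all genes were called higher and 5.76% lower. Mcpt1 differed by 4.74 ± 0.91 (adjusted p = 0.0234), Mcpt2 by 3.59 ± 0.59 (0.0136) and Cpa3 by 2.38 ± 0.35 (0.00996). Fcer1a differed by 2.12 ± 0.21, Ms4a2 by 2.22 ± 0.20, Mcpt4 by 1.39 ± 0.18, Tpsb2 by 1.05 ± 0.19 and Cma1 by 1.07 ± 0.25 (adjusted p = 0.0417), and Hdc by -1.50 ± 0.19 (0.00653). In non-tumour tissue only Cma1 was called between the tissues, with 177 and 232 in colon against 77.8 and 79.7 in small intestine. It was higher in colon by 1.36 ± 0.25 (adjusted p = 0.0144), 1 of 9 genes where 13.0% of all genes were called higher. Mcpt4, Tpsb2, Hdc, Fcer1a and Ms4a2 were below the floor in all non-tumour pools, so no difference was measurable. Mcpt1 and Mcpt2 were below it in non-tumour colon. Mcpt2 had 106 and 198 in small intestine against 38.5 and 44.3 in colon and did not pass (limma adjusted p = 0.209). The call of Cma1 between the tumours passed in 5 of 11 other settings (adjusted p from 0.0247 to 0.150) and was lost, among others, with median centring and with a floor at the 25th percentile. Its call in non-tumour tissue passed in 9 of 11. Between the tumours, no floor also ended the calls of Mcpt4, Tpsb2, Hdc and Fcer1a, and no filter left Mcpt4 and Ms4a2. The summed smooth muscle signal of non-tumour tissue was also higher in colon, and its part in the Cma1 difference was not tested. Without any 1 array limma called 0 of the 9 genes in either of these tissue comparisons, with 8 to 9 of the 9 between the tumours and 1 to 2 in non-tumour tissue at an unadjusted p under 0.05.

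Loss of ACKR2 was compared within tumours to see whether the mast cell genes moved with the chemokine receptor. All 9 genes had a mean difference above 0, with a median of 0.96 beside -0.03 over all genes, but 0 of 9 passed (6 at an unadjusted p under 0.05, as were 2188 of all 14023 genes). Across all genes 0.0357% were called in either direction. In colon tumours Mcpt1 went from 49.9 with ACKR2 to 2316 without it, Mcpt2 from 153 to 1992, and Cpa3 from 113 to 426. These are differences of at least 36.1-fold, 13.0-fold and 3.76-fold. Mcpt1 and Mcpt2 ranked 1 and 2 of 14023 genes in this pair, Cpa3 23, Cma1 112 and Fcer1a 238. At least 2-fold higher in colon tumours were 5 of 9 (Mcpt1, Mcpt2, Cma1, Cpa3 and Fcer1a), against 1.96% of all genes.

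In small-intestinal tumours the same pair differed less. Mcpt1 was 1.86-fold, Mcpt2 2.22-fold, Cma1 2.59-fold, Cpa3 1.59-fold, Fcer1a 1.82-fold and Ms4a2 1.73-fold higher without ACKR2. Mcpt4 and Tpsb2 were nearly level, at 174 and 172 and at 150 and 161. At least 2-fold higher in both tumour pairs were 2 of 9 (Mcpt2 and Cma1), against 0.207% of all genes, and 0 of 9 were at least 2-fold lower in both, against 1.35%. The mean differences were 3.03 ± 0.91 for Mcpt1 (limma adjusted p = 0.230), 2.43 ± 0.59 for Mcpt2 (0.178), 1.32 ± 0.25 for Cma1 (0.150), 1.29 ± 0.35 for Cpa3 (0.201), 0.96 ± 0.21 for Fcer1a (0.163) and 0.74 ± 0.20 for Ms4a2 (0.197). Every alternative setting that was fitted also left these 6 genes short of the threshold. Cma1, above the floor in all tumour pools, was 2.59-fold higher in small intestine and 2.41-fold higher in colon.

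**Figure D4:**
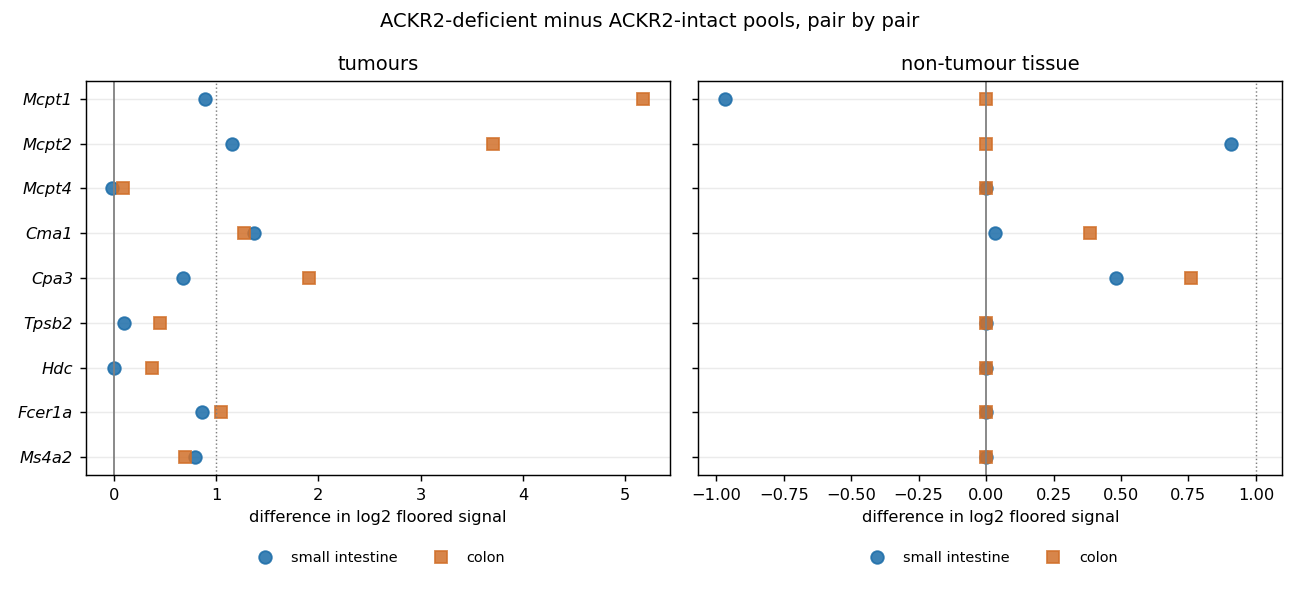
Difference between pools without and with ACKR2 on the log2 scale (x axis; the panels differ in range) for each gene, in tumours (left) and non-tumour tissue (right), with small intestine as circles and colon as squares and the dotted line at 2-fold; 0 also stands for pairs with both values at the floor. In colon tumours Mcpt1 and Mcpt2 lie at 5.17 and 3.71, and in non-tumour tissue no gene passes 1 in either direction.

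Other measures moved with ACKR2 genotype in the tumours. Summed smooth muscle signal fell from 22719 to 8980 in small-intestinal and from 33653 to 8519 in colon tumours, with a median of -2.23 over 10 genes, of which 1 passed (Synm, -3.41 ± 0.27, adjusted p = 0.0454). Summed leukocyte signal was 11959 and 14630 in small-intestinal and 4505 and 4403 in colon tumours, and 0 of 6 of these genes passed. Of the other mast cell genes 0 of 15 passed, with a median of -0.02. Xist had 4827 and 2954 in the ApcMin/+ tumours and 127 and 77.9 in those without ACKR2. The part of tissue make-up, sex, RNA quality and signal scale in the ACKR2 differences was not tested, and with 1 pool per genotype the genotype and the pool cannot be told apart.

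In non-tumour tissue 0 of 9 genes were called with loss of ACKR2 and 0 of 9 had an unadjusted p under 0.05, where 0.685% of all genes were called in either direction. Mcpt1 had 133 and 67.9 and Mcpt2 106 and 198 in WT and ACKR2-/- small intestine. The 2 mucosal proteases thus differed in opposite directions, each by under 2-fold. On floored values, only Cpa3 and Cma1 were higher without ACKR2 in both tissues. Cpa3 went from 58.1 to 89.6 in small intestine and from 30.3 to 109 in colon (0.62 ± 0.35, limma adjusted p = 0.333). Cma1 went from 77.8 to 79.7 and from 177 to 232 (0.21 ± 0.25, adjusted p = 0.650). Mcpt4, Tpsb2, Hdc, Fcer1a and Ms4a2 were below the floor in all 4 non-tumour pools, so no difference was measurable there.

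The mucosal and the connective-tissue type proteases were set side by side by the mean of their pair differences, as a description. For Mcpt1 and Mcpt2 these were 5.62 and 6.67 on the log2 scale in small intestine with and without ACKR2, and 0.63 and 5.07 in colon. For Mcpt4, Cma1, Tpsb2 and Cpa3 they were 2.02, 2.42, 0.05 and 0.70. Without Cpa3, which mucosal mast cells also make, they were 1.42, 1.90, -0.20 and 0.27. For Fcer1a and Ms4a2 they were 2.19, 3.02, 0 and 0.87. The mucosal proteases had the larger mean in every pair. Because Mcpt4, Tpsb2 and both receptor chains started below the floor, their differences are lower limits and the gap to the mucosal genes is not a measured one.

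Over the 8 arrays the genes other than Hdc and Cma1 followed each other closely. Pearson's r of the log2 signal was 0.98 for Mcpt1 with Mcpt2, 0.995 for Fcer1a with Ms4a2 and 0.989 for Tpsb2 with Fcer1a. The lowest r among them was 0.86, for the mucosal Mcpt2 with the connective-tissue type Mcpt4. Cma1 had r between 0.67 and 0.81 with the genes other than Hdc, and Hdc between -0.29 and 0.12 with the rest. The points share arrays, tissue and the floor, so these values are descriptions. Of 2857 other genes with a log2 range of at least 2, those most like Mcpt2 over the 8 arrays were Tgm4 (r = 0.977), Wfdc15b (0.976), Gulo (0.974), Lect2 (0.968) and the leukocyte tetraspanin Cd53 (0.947). Those most like Tpsb2 were the lymphocyte antigen Ly86 (0.979), Bpifb5 (0.970), Gkn1 (0.963), Bpifb1 (0.962) and Igfbp1 (0.961).

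The protease cluster was also read along the chromosome. Beyond Mcpt4 it goes on with Mcpt8, Ctsg, 6 granzyme genes and Gzmb (RefSeq, GRCm38.p6). Ctsg and the granzymes Gzme, Gzmd, Gzmg, Gzmn, Gzmf and Gzmc never exceeded 45.3 on any array. Gzmb, a protease of cytotoxic lymphocytes, reached 3336 and differed by -0.56 in small-intestinal tumours (adjusted p = 0.326). Within the cluster, only Cma1, Mcpt1, Mcpt2, Mcpt4 and Gzmb were tested, and all but Gzmb passed between tumour and non-tumour small intestine. Mcpt8, Ctsg and the other 6 granzyme genes did not pass the filter, and Cma2 and Mcpt9 lacked a probe set of their own. Mcpt8 had 5.56 and 8.12 in non-tumour and 56.5 and 127 in tumour small intestine.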

How the data were processed

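The deposited table held intensity values on a linear scale, 1 column per array, computed by the authors with MAS5 and handled in Partek, per the submitters' processing notes; their versions are not given in the sources used here. Per the labels, RNA was extracted with Trizol and RNeasy columns and biotin-labelled by an IVT Express protocol. A floor was placed at 64.1, the middle value of the 8 arrays' 40th percentiles, and lower values were raised to it before taking log2. The probe set with the highest mean stood for a gene, and a gene was tested (14023 were) if 2 or more arrays exceeded the floor.

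A limma model (3.58.1, R 4.3.3) had 6 coefficients: 4 means, for each tissue with and without tumour, and an ACKR2 term each for tumours and for non-tumour tissue. Tests were two-sided, with Benjamini-Hochberg adjustment over all genes and a threshold of 0.05; the fit was tested on simulated data. The median standard deviation was 0.22. Pairs of single arrays were described without a test. Promoters were aligned with Biopython 1.88. The genes, lists and settings were chosen with earlier results of these data known. Named genes were all 9 genes, other mast cell genes called in a tumour comparison, up to 4 genes of each further list with the largest tumour effect in small intestine, and the 5 genes most like Mcpt2 and Tpsb2; further genes of the lists and of the chromosome 14 cluster were named after their values were seen. Groups came from the labels, and each array's number of animals limits the precision in a way that is not known.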

Additional observations from a re-analysis of the deposited data

Results flagged for a closer look

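The tumour effect differed between small intestine and colon by the interaction in the limma fit for 3 genes, on the log2 scale: 2.43 for Cma1, 2.12 for Fcer1a and 2.22 for Ms4a2. Each was higher in small-intestinal tumours in both pairs. For Fcer1a and Ms4a2 both non-tumour pools and the ApcMin/+ tumours of colon were below the floor, so these differences rest on floored values. Cma1, measured above the floor on all 8 arrays, was lower in ApcMin/+ colon tumours than in WT colon and higher in the ACKR2-/- pair.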

How the results depend on the processing

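Leaving out each array in turn left 0 of the 9 genes called in every comparison, each time with 1 residual degree of freedom. Members called in small-intestinal tumours, in colon tumours, in small intestine minus colon, in colon minus small intestine without tumours and between the tumours numbered 8, 3, 3, 1 and 9. With a floor at the 60th percentile, which left 6 genes tested, they numbered 3, 0, 1, 0 and 5. With no filter they numbered 1, 0, 0, 0 and 2. With only genes above the floor on all 8 arrays, which left Cma1, they numbered 1, 0, 1, 1 and 1. With no floor, small intestine minus colon gave 1 and the tumours 5; with a floor at the 25th percentile, small intestine minus colon gave 1. The genes at least 2-fold higher in both small-intestinal pairs, both colon pairs, both ACKR2 tumour pairs and the ACKR2 colon tumour pair numbered 8, 2, 2 and 5. They numbered 3, 0, 1 and 3 with a floor at the 60th percentile and 1, 0, 1 and 1 with genes above the floor on all 8 arrays. Both colon pairs gave 4 with no floor and 1 with the mean of all probe sets. Without both WT arrays only the ACKR2-/- pair was left, and its 5 genes had to pass in that 1 pair only. The ACKR2 colon tumour pair gave 8 with no floor and 8 with a floor at the 25th percentile. With arrays centred on their medians, both ACKR2 tumour pairs gave 4. Centring moved the median of all genes from -0.02 to 0.44 for ACKR2 loss in non-tumour tissue, from -0.03 to 0.20 for ACKR2 loss in tumours and from 0.04 to -0.12 for small-intestinal tumours. It turned 389 higher and 168 lower genes in small-intestinal tumours into 254 and 220, 1032 and 808 between the tumours into 808 and 1023, 213 and 103 for small intestine minus colon into 103 and 111, and 1821 and 1178 in non-tumour tissue into 1290 and 1245. For ACKR2 loss in non-tumour tissue it turned 18 and 78 into 3600 and 173. With no filter, 14 genes were higher and 4 lower in small-intestinal tumours, and 36 and 51 in colon tumours. No result changed direction past a threshold under the settings fitted, and beyond what the construction of a setting shows, the cause of these changes was not tested. Signals near the floor limit Mcpt4, Tpsb2, Hdc, Fcer1a and Ms4a2, each of which exceeded it on at most 3 arrays. The alternatives without both WT or both ACKR2-/- ApcMin/+ arrays, and both counts over ACKR2 tumour pairs of genes that were higher, were added after the data were seen.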
